A study of Drosophila melanogaster with 8 samples.

Results

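The nuclear genes for mitochondrial ribosomal proteins were followed through RNA from adult heads of Drosophila melanogaster in which FBXO11, the F-box subunit of a ubiquitin ligase, had or had not been knocked down in the neurons. Members were the genes of the count table whose FlyBase identifier maps to a symbol starting with mRpL or mRpS, with no measured value used, and 72 of the 17676 genes in the table met that rule. Of these, 47 carry a large-subunit symbol (mRpL) and 25 a small-subunit symbol (mRpS). In all, 71 members were among the 11081 genes with enough counts to test, and mRpL53 was not.

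Mitochondrial ribosomes translate the few proteins encoded by mitochondrial DNA, most of which are core subunits of the respiratory chain and ATP synthase. Their RNA is encoded in the mitochondrion, whereas their proteins are encoded in the nucleus, made in the cytosol and imported. Some descend from proteins of the bacterial ribosome, and others have no bacterial counterpart and are specific to mitochondria. In flies, reduced function of this machinery is known from tko, the gene of a small-subunit protein whose mutants are bang-sensitive.

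The 8 RNA-seq libraries fall into 3 groups by their titles. The control group held 3 libraries of genotype FBXO11 WT, RNA1 held 3 of genotype FBXO11 KD1, and RNA2 held 1 library of genotype FBXO11 KD2 (replicate 1) and 1 of genotype FBXO11 KD3 (replicate 2). The titles of all 8, controls included, name a neuronal knockdown, and all carry batch 1. The driver line, sex and age of the flies are not given in the sources available, and neither is whether replicates came from separate pools of flies. The p-values therefore measure the spread between samples that may be technical replicates. Control and knockdown share no genotype entry, so genetic background and knockdown cannot be told apart.

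FBXO11 stood at 108, 103 and 97.4 CPM (counts scaled to a common library size) in the control libraries, at 39.7, 42.5 and 37.4 in RNA1 and at 44.8 and 52.7 in RNA2. It fell by 1.37 ± 0.09 (SE) on the log2 scale in RNA1 (edgeR FDR 4.9e-05) and by 1.08 ± 0.10 in RNA2 (FDR 0.000539). Libraries held 32434805 to 41589222 counts, and each tested member had between 192 (mRpL34) and 4045 (mRpS9) counts in every library. Photoreceptor and neuronal markers were abundant in all libraries (ninaE at 23900 CPM or more, nSyb at 1620 CPM or more). Because a head holds many cell types, fewer cells of a type and less RNA per cell cannot be told apart in any value below.

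In control heads the members were expressed at moderate and similar levels. Per kilobase of exon, their control means ran from 7.61 to 68.1 CPM with a median of 22.4, and 65 of the 71 lay within 2-fold of that median. The quartiles were 18.2 and 26.6 CPM per kb, a ratio of 1.46, against 2.85 and 28.2 CPM per kb, a ratio of 9.89, for all tested genes with an annotated length (median 11.5). A share of 69.0% of those genes lay below the median member. The cytosolic ribosomal proteins, which build the ribosomes outside the mitochondrion, had a median level of 515 CPM per kb over 84 genes. Nuclear-encoded oxidative phosphorylation subunits had a median of 204 CPM per kb over 76 genes. Quartile ratios of these lists were 1.66 and 3.48, so the cytosolic ribosomal proteins were nearly as narrow in spread as the members. Medians were lower than the members' for mitochondrial translation factors (8 genes, 13.4 CPM per kb) and mitochondrial aminoacyl-tRNA synthetases (15 genes, 5.34 CPM per kb). Both lists overlapped the range of the members, with highest values of 57.1 and 32.3 CPM per kb.

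At the top of the order stood mRpS9, a small-subunit protein of bacterial type, with 68.1 ± 5.11 CPM per kb (SD, n = 3), and mRpL28, a large-subunit protein of bacterial type, with 65.5 ± 1.68. These 2 differed by less than their spread. They were followed by mRpL24 (51.6 ± 5.49 CPM per kb), mRpL12 (39.2 ± 1.94), which forms the stalk that recruits translation factors, and mRpS25 (37.8 ± 1.41), and the last 2 again lay within each other's spread. Of mRpS9's exon length, 25.1% overlaps ArgRS-m on the opposite strand, and the strand setting of the counting is not given in the sources used here. The lowest members were mRpL21 (7.61 ± 0.296 CPM per kb), mRpS18B (10.2 ± 0.256), mRpS6 (10.9 ± 1.44), mRpS23 (14 ± 1.2) and mRpS14 (14.3 ± 1.22). In this order mRpS18B and mRpS6, and mRpS23 and mRpS14, differed by less than their spread, and mRpL21 lay below all. Its annotated exons span 1696 bases against 603 of coding length, which lowers a level per kb of exon. mRpL21 stood at 12.9 ± 0.502 CPM without division by length.

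Sorted by symbol number into bacterial-type and mitochondria-specific members, a grouping made here, the 4 classes had nearly equal median levels in control heads. Bacterial-type large-subunit members (28 genes) had a median of 22.1 CPM per kb and the mitochondria-specific ones (18 tested of 19) a median of 22.9. For the small subunit the medians were 23.3 CPM per kb for the 13 bacterial-type genes and 22.3 for the 12 mitochondria-specific ones. The classes follow the symbols; in mammals the proteins named S30 and S18A sit in the large subunit.

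**Figure D1:**
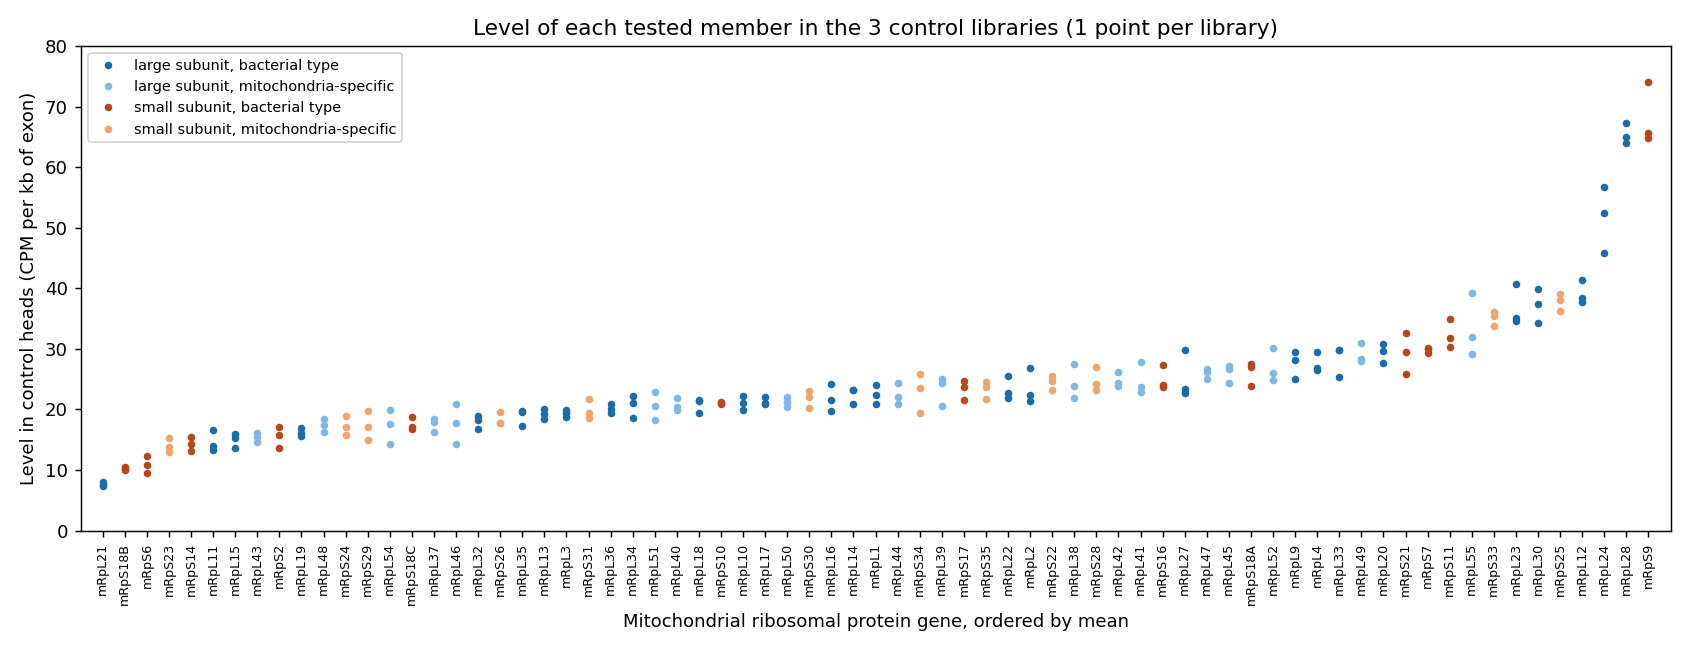
Control level of each of the 71 tested members, in CPM per kb of exon, in each of the 3 control libraries (points), by class. Most members of all 4 classes lie close to the median of 22.4, with mRpS9, mRpL28 and mRpL24 above and mRpL21 below.

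All tested members together took 0.142%, 0.142% and 0.154% of the counts in the control libraries, 0.15%, 0.155% and 0.164% in RNA1, and 0.166% and 0.15% in RNA2. By these shares of unscaled library totals, RNA1 replicate 1 and RNA2 replicate 2 lay within the control range and the other 3 knockdown libraries above it. As summed CPM, RNA1 replicate 2 (1557) also lay within the control range (1433 to 1583). The cytosolic ribosomal proteins took between 4.0% and 5.5% of the counts.

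As genes, the members are short and mostly have a single annotated transcript. Their median exon length was 783 bases against 2073 for the 10220 tested protein-coding genes, their median coding length was 576 against 1374 bases, and 54 of 71 (76.1%) had 1 annotated transcript against 41.2%. The proteins run from 63 residues (mRpL33) to 556 (mRpS30), with a median of 191. Members lie on all the major chromosome arms, with 11 on X, 12 on 2L, 11 on 2R, 16 on 3L and 21 on 3R.

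Many sit head to head with another gene. A protein-coding gene on the opposite strand started within 500 bases of the start of 52 members (73.2%), against 30.4% of all tested protein-coding genes, and the median distance between those starts was 271.5 bases. Exons overlapped an opposite-strand gene in 41 members (57.7%, against 32.7%), most of all in mRpS24 (55.3% of its exon length, with TBC1d7) and mRpS21 (48.0%, with CG8870). For these genes, reads of the partner may be included if the counting ignored strand. These coordinates were read from Ensembl's gene models for build BDGP6, and the authors may have used another release.

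mRpL53, a mitochondria-specific large-subunit protein, was the 1 member left out of the tests. It had 0 counts in all 8 libraries, below a floor of 3 counts in each. Its annotated span (2R:13954195-13955664, plus strand) is shared exactly by CG33155 on the same strand, which held 96 to 355 counts per library. How reads that fall on both genes were assigned is not given in the sources used here, and the 0 is not read as absence.

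The first comparison asked how the members differed between RNA1 and control heads. In RNA1, 1 member rose and 0 fell among the 71 tested, where edgeR called 5.01% of all tested genes higher and 5.25% lower (10.3% in either direction) at FDR under 0.05. The member was mRpS31 (FBgn0036557, 3L:16005193-16006599), a mitochondria-specific protein of the small subunit. At an unadjusted p under 0.05 there were 6 members (8.45%), against 26.7% of all tested genes. The median log2 fold change over members was 0.041, beside 0.007 over all tested genes, and 48 of 71 members (67.6%) were above 0, beside 51.4% of all genes. That median was 0.017 without RNA1 replicate 3 and 0.092 without RNA1 replicate 1.

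mRpS31 stood at 24.7, 23.8 and 27.8 CPM in the control libraries, at 36.2, 33.9 and 33.6 in RNA1 and at 29.0 and 25.7 in RNA2. All 3 RNA1 libraries lay above all 3 controls, while the RNA2 libraries overlapped the controls. The group means were 25.4 ± 2.10 CPM in control (SD, n = 3), 34.6 ± 1.44 in RNA1 (n = 3) and 27.4 ± 2.37 in RNA2 (n = 2). Its log2 fold change in RNA1 was 0.44 ± 0.09 (SE), or 1.36-fold, with a 95% interval of 0.25 to 0.64 (edgeR FDR 0.014). The call was lost without control replicate 1 (FDR 0.0624, log2 fold change 0.42) or control replicate 2 (FDR 0.0641, 0.40), and it held without control replicate 3. In RNA2 the log2 fold change was 0.11 ± 0.10 (FDR 0.605). The direct comparison of RNA2 with RNA1 gave -0.34 ± 0.10 (FDR 0.355), so a difference between the knockdowns in mRpS31 did not pass. An overlap with mib1 on the opposite strand covers 3.8% of its exon length.

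The members next in order did not pass at FDR under 0.05. mRpS7, a bacterial-type protein of the head of the small subunit, stood at 27.5, 26.9 and 27.6 CPM in control, 30.6, 35.6 and 32.5 in RNA1, and 34.3 and 33.7 in RNA2. All 5 knockdown libraries lay above the 3 controls, which were close together. The log2 differences were 0.27 ± 0.08 in RNA1 (edgeR FDR 0.0575) and 0.31 ± 0.09 in RNA2 (FDR 0.0814). mRpS11, a bacterial-type protein of the small-subunit platform, stood at 22.1, 23.2 and 25.4 CPM in control, 28.5, 28.7 and 27.6 in RNA1, and 28.5 and 25.8 in RNA2. Here too no knockdown library fell within the control range, although RNA2 replicate 2 was only just above it. The log2 differences were 0.26 ± 0.08 (FDR 0.0729) and 0.20 ± 0.09 (FDR 0.272). mRpL50, a mitochondria-specific large-subunit protein, stood at 15.1, 15.7 and 16.3 CPM in control, 21.3, 17.0 and 17.2 in RNA1, and 20.1 and 18.0 in RNA2. Its groups did not overlap either, but 1 RNA1 library held the highest value, and the FDR was 0.196 in RNA1 and 0.252 in RNA2.

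Both knockdowns were compared with the same 3 controls, so a value that recurs in both is not independent. mRpS7, mRpS11 and mRpL50 were the 3 members (4.23%) with all 5 knockdown libraries above all controls, against 10.7% of all tested genes, and 0 members had all 5 below, against 10.7%. In RNA1 alone, 7 members (9.86%) had every library above the controls, namely mRpL32, mRpL36, mRpL50, mRpS11, mRpS26, mRpS31 and mRpS7, against 17.0% of all tested genes. No member (0 of 71) had every RNA1 library below the controls, against 16.6% of all genes. In RNA2 the count was 8 above (11.3%, against 20.4%) and 0 below (against 18.5%). Counts in both directions were thus under the share for all genes.

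mRpL33, a small bacterial-type protein of the large subunit, had the largest RNA2 value. It stood at 8.84, 10.4 and 10.4 CPM in control, 13.4, 13.5 and 10.2 in RNA1, and 13.5 and 12.9 in RNA2. RNA1 replicate 3 lay among the controls while the other knockdown libraries lay above them. The log2 differences were 0.32 ± 0.13 in RNA1 (FDR 0.147) and 0.41 ± 0.14 in RNA2 (FDR 0.165), with a 95% interval of 0.09 to 0.73 for RNA2. mRpS21, of bacterial type, stood at 12.3, 14 and 15.5 CPM in control, 18.1, 16.9 and 14.6 in RNA1, and 16.0 and 18.9 in RNA2, with an opposite-strand overlap of 48.0% of its exon length as given above. Its log2 difference was 0.25 ± 0.12 in RNA1 (FDR 0.226) and 0.32 ± 0.13 in RNA2 (FDR 0.236).

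Of the other members lowest in p for RNA1, mRpL36 had a log2 difference of 0.23 ± 0.09 (FDR 0.162), mRpL30 of 0.20 ± 0.09 (FDR 0.176) and mRpL32 of 0.19 ± 0.09 (FDR 0.214), all 3 bacterial-type proteins of the large subunit. The lowest RNA1 value of any member was that of mRpS22, a mitochondria-specific small-subunit protein. It stood at 31.2, 33.0 and 34.2 CPM in control, 26.8, 28.1 and 31.5 in RNA1, and 32.9 and 28.5 in RNA2. Its RNA1 and control ranges overlapped, and the log2 difference was -0.19 ± 0.09 (FDR 0.221).

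**Figure D2:**
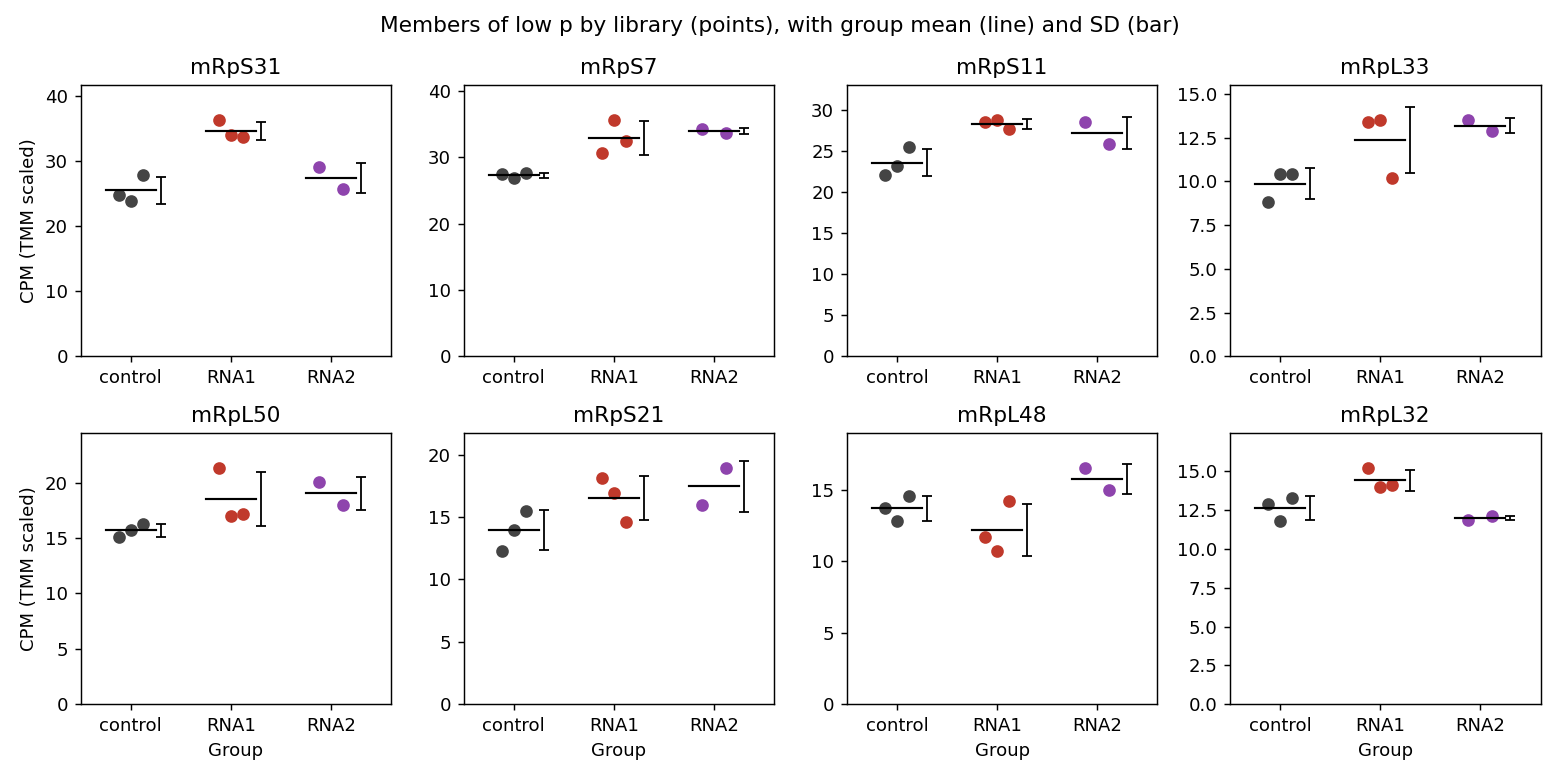
CPM of selected members in each of the 8 libraries (points), with group mean and SD (bars), each panel on its own axis from 0. mRpS31 is higher in the 3 RNA1 libraries than in control and RNA2, and mRpS7 has all 5 knockdown libraries above the controls.

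Compared with control, RNA2 heads showed 0 members higher and 0 lower, where edgeR called 1.76% of all tested genes higher and 2.02% lower (3.78% in either direction). At an unadjusted p under 0.05 there were 5 members (7.04%, against 18.4% of all genes), mRpS7, mRpL33, mRpS21, mRpL50 and mRpS26, and DESeq2 and limma-voom called 0 members each. Median log2 fold change was 0.058, beside 0.010 over all tested genes, and 51 members (71.8%) were above 0, beside 51.8%. That median depended on RNA2 replicate 1: without it the median was -0.02, and without replicate 2 it was 0.134. The remaining low-p members were mRpL4 (0.22 ± 0.10, FDR 0.294), mRpS9 (0.22 ± 0.10, FDR 0.30), mRpL46 (0.29 ± 0.14, FDR 0.313) and mRpL37 (0.16 ± 0.09, FDR 0.367). mRpS26 had a log2 difference of 0.25 ± 0.11 (FDR 0.270).

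Between the knockdowns, 0 members were higher and 0 lower in RNA2 than in RNA1, where edgeR called 0.19% of all tested genes higher and 0.0902% lower (0.28% in either direction). An unadjusted p under 0.05 was reached by 4 members (5.63%, against 7.66%), and DESeq2 and limma-voom called 0 each. After mRpS31, the lowest p belonged to mRpL48, a mitochondria-specific large-subunit protein, at 13.7, 12.8 and 14.6 CPM in control, 11.7, 10.7 and 14.2 in RNA1, and 16.5 and 15 in RNA2. The RNA2 libraries lay above all others, and the log2 difference between knockdowns was 0.37 ± 0.13 (FDR 0.518). mRpL32 went the other way (-0.27 ± 0.10, FDR 0.563), with RNA1 at 15.2, 14 and 14.1 CPM and RNA2 at 11.9 and 12.1. mRpS30 had a difference of 0.21 ± 0.09 (FDR 0.633). The other 6 members among the 10 lowest in p were mRpL36 (-0.23), mRpL52 (-0.23), mRpL51 (0.22), mRpL37 (0.15), mRpS23 (0.18) and mRpL14 (-0.15), with FDR between 0.684 and 0.811.

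The intervals bound the size of change of each member only if the replicates are independent. Their outermost bounds were -0.69 in RNA1 (mRpL2), 0.73 in RNA2 (mRpL33) and 0.75 between the knockdowns (mRpL2). Log2 fold changes ran from -0.19 to 0.44 in RNA1 and from -0.15 to 0.41 in RNA2, with quartiles of -0.033 and 0.145 in RNA1 where those of all genes were -0.16 and 0.192. In each of the 3 comparisons the 95% interval of all 71 members lay within a log2 change of 1 in either direction, while 8609 of 11081 genes did so in RNA1 and 8417 in RNA2. Within 0.5 in either direction lay 67 members in RNA1, 62 in RNA2 and 65 between the knockdowns. Intervals reached a median of 0.228 to either side of a member's value in RNA1, against 0.264 for all genes. The widest interval was that of mRpL2, a core protein of the large subunit, which stood at 23.3, 22.2 and 27.8 CPM in control, 16.0, 23.3 and 25.7 in RNA1, and 30.2 and 18.7 in RNA2. Its replicates within each knockdown differed more than the groups did, and the RNA1 interval was -0.69 to 0.35.

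**Figure D3:**
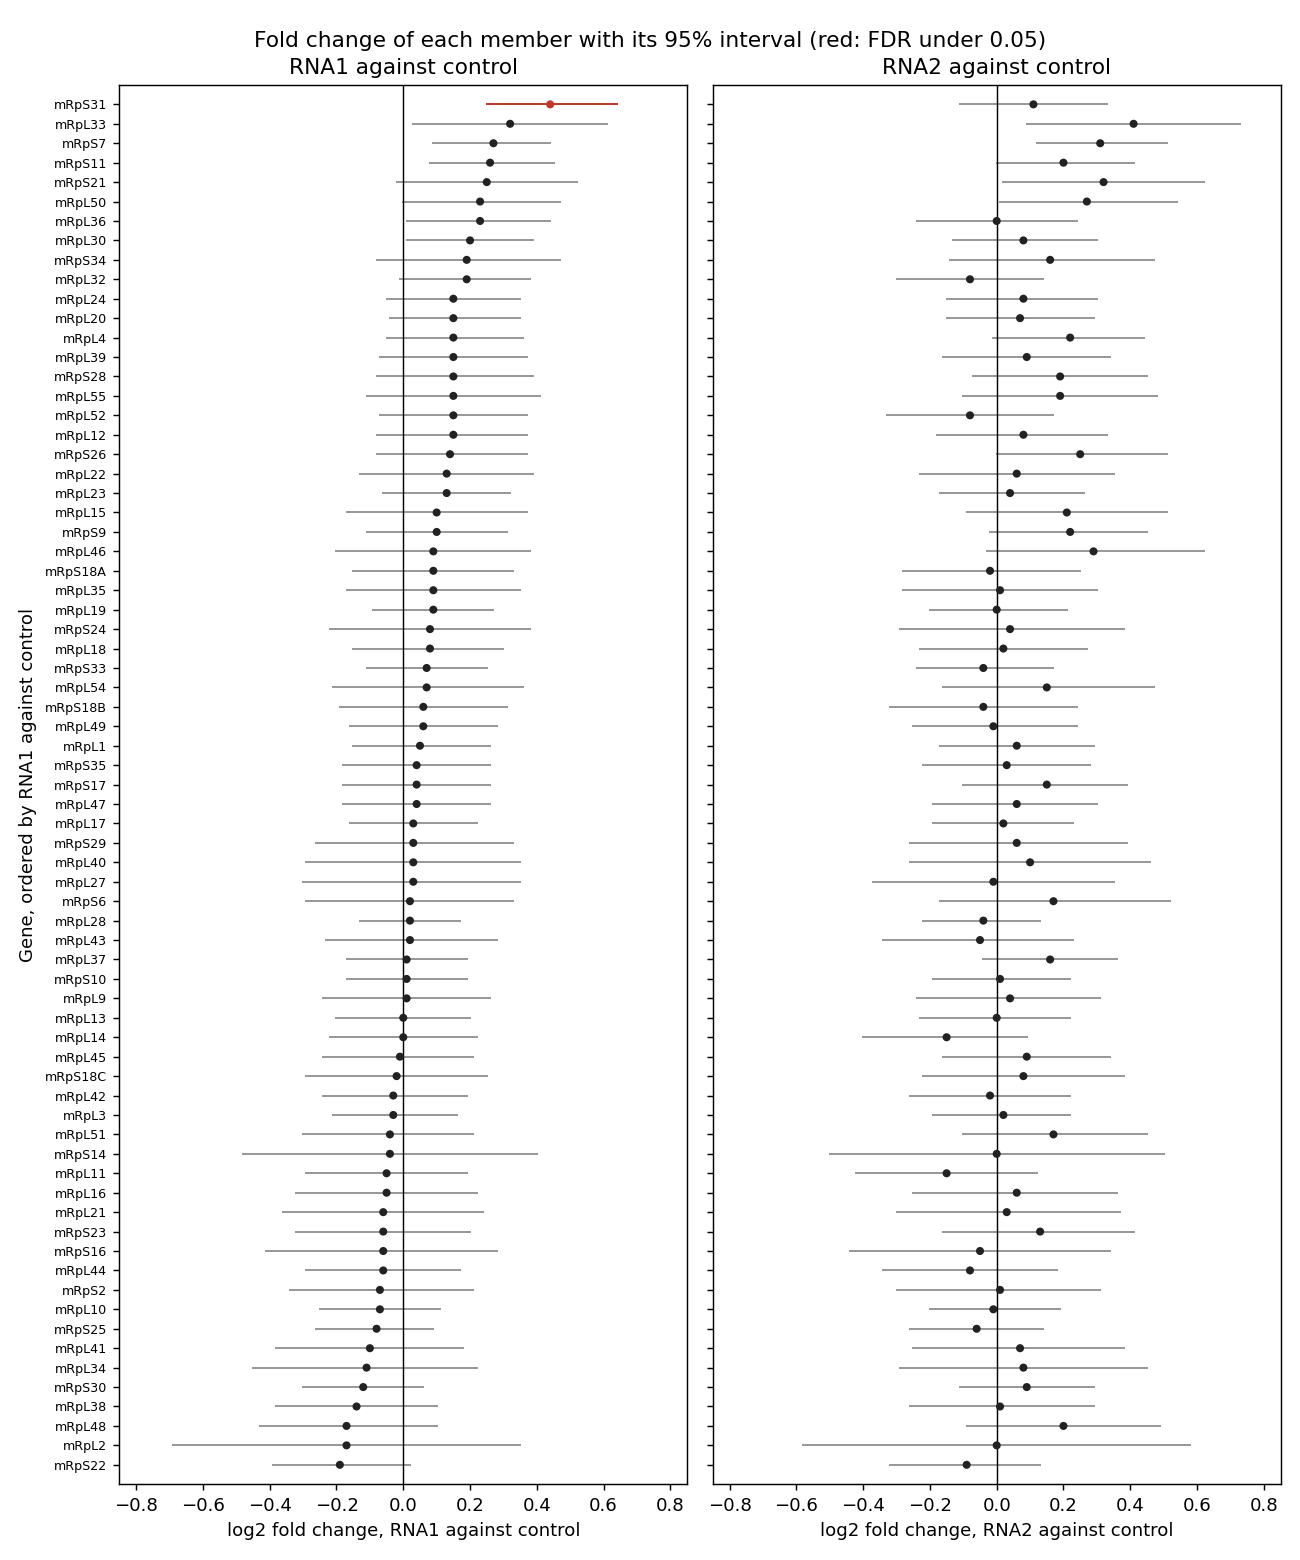
Log2 fold change of the 71 tested members (points) with its 95% interval (lines), for RNA1 against control on the left and RNA2 against control on the right, ordered by the RNA1 value. Only mRpS31 in RNA1 (red) passed FDR under 0.05, and no interval reaches a log2 change of 1.

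Class medians lay close together. In RNA1 the class medians were 0.065 for bacterial-type large-subunit members (20 of 28 above 0), 0.026 for mitochondria-specific large-subunit members (11 of 18), 0.041 for bacterial-type small-subunit members (9 of 13) and 0.054 for mitochondria-specific small-subunit members (8 of 12). For RNA2 the medians were 0.027, 0.091, 0.079 and 0.076 in the same order. The related genes mRpS18A, mRpS18B and mRpS18C, which encode versions of a bacterial small-subunit protein, had log2 differences of 0.09, 0.06 and -0.02 in RNA1 and of -0.02, -0.04 and 0.08 in RNA2, and the signs near 0 turned when single libraries or the scaling changed.

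Libraries under 1 title differed as much as the groups did, and in RNA2 replicate and genotype entry (KD2 and KD3) cannot be told apart. As the median over members of the log2 difference from the control mean, the control libraries stood at -0.048, -0.052 and 0.079, RNA1 at -0.04, 0.047 and 0.107, and RNA2 at 0.137 and -0.015. The groups overlapped. In RNA2 replicate 1, 65 of 71 members were above the control mean, and in RNA2 replicate 2, 31 were. The same libraries were high for other gene lists: control replicate 3, RNA1 replicate 3 and RNA2 replicate 1 had the highest median of their group for the members, for cytosolic ribosomal proteins (0.097, 0.285 and 0.381) and for nuclear-encoded oxidative phosphorylation (0.134, 0.072 and 0.073).

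**Figure D4:**
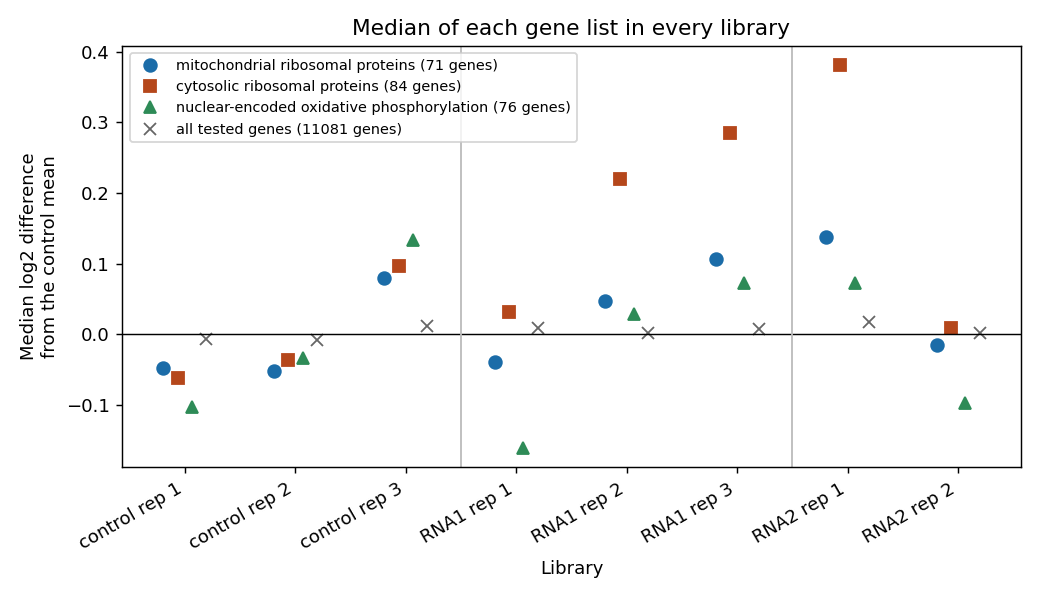
Median log2 difference from the control mean in each of the 8 libraries, for the members, cytosolic ribosomal proteins, nuclear-encoded oxidative phosphorylation subunits and all tested genes. Members range from -0.052 to 0.137 with overlapping groups, while all tested genes stay near 0.

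**Figure D5:**
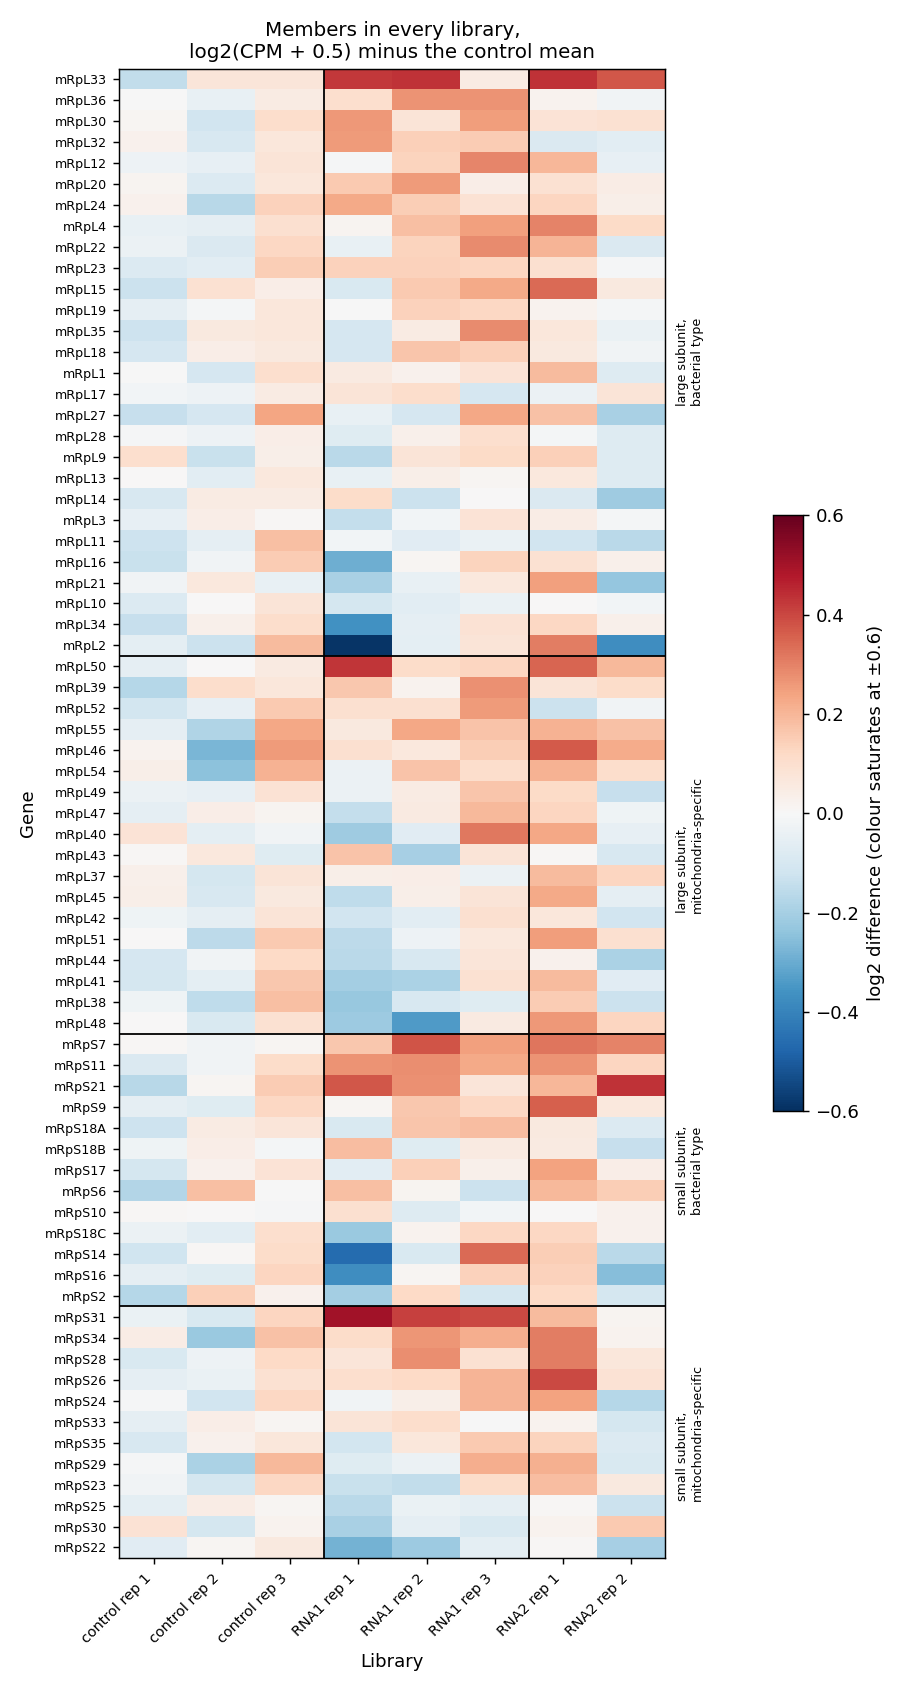
Log2 difference of each tested member from its control mean (colour) in each of the 8 libraries (columns), with members in rows by class. RNA2 replicate 1 is mostly above 0 and RNA2 replicate 2 is not, as in the counts of 65 and 31 members above the control mean.

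Markers of other cell types also differed between these libraries. The 10 fat body markers summed to 2902 to 3442 CPM in control, 3012 to 4539 in RNA1 and 3434 to 4842 in RNA2, with RNA2 replicate 1 the highest. The 10 gut markers, of which 7 were tested, summed to 31.99 to 45.07 CPM in control, 69.03 to 179.7 in RNA1 and 96.49 to 188.2 in RNA2. Of these, alphaTry and betaTry were at 0 in all controls, and both were highest in RNA1 replicate 3, as was LysB (43.3 CPM). In the other knockdown libraries alphaTry, betaTry and LysB stayed at or under 0.473 CPM. Amy-p and Amy-d lay above all controls in every knockdown library, while Mal-A1 and Mal-B1 lay above the control range in none. The 7 hemocyte markers, of which 6 were tested, summed to 423.4 to 441.3 CPM in control, 454.6 to 572.5 in RNA1 and 504.6 to 549.0 in RNA2. The 8 neuronal markers summed to 5915 to 6568 CPM in control, 5237 to 6505 in RNA1 and 5650 to 6091 in RNA2, lowest in RNA1 replicate 3 and RNA2 replicate 1. Glial markers summed to 2771 to 2959 CPM in control, 2550 to 2829 in RNA1 and 2326 to 2637 in RNA2. The 10 muscle markers summed to 9598 to 11430 CPM in control, 9010 to 10050 in RNA1 and 9157 to 10220 in RNA2. The 8 photoreceptor markers summed to 61180 to 68910 CPM in control, 61750 to 62770 in RNA1 and 62220 to 76590 in RNA2, highest in RNA2 replicate 1. The 7 matched ovary markers summed to 6.282 to 9.599 CPM in control, 0.958 to 1.445 in RNA1 and 0.6127 to 1.712 in RNA2. Only 2 of them, Cp38 and vas, were tested. Of all tested genes, edgeR called 5.01% higher and 5.25% lower in RNA1, and 1.76% and 2.02% in RNA2. By the same test, 4 hemocyte, 3 fat body and 2 gut markers rose in RNA1, and 2, 2 and 1 in RNA2. Another 2 glial and 1 ovary marker fell and 1 muscle marker rose in each knockdown, and 1 fat body marker fell in each. Left-out libraries moved these counts, to 0 for glial markers in RNA2 without any 1 of the controls. The part of all these markers in the members' values was not tested.

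In short lists of genes that work with the mitochondrial ribosome, few passed the test. Over all tested genes, 10.3% passed in RNA1, 3.78% in RNA2 and 0.28% between the knockdowns. With so few genes in a list, a count of 0 is not read as a difference from those shares. Of 4 mitochondrial ribosomal proteins with other symbols (tko, bonsai, CRIF and CG6094), 0 passed in any comparison by edgeR with TMM scaling, and 1, bonsai, passed in RNA1 with library totals (FDR 0.0388). bonsai stood at 22.3, 23.8 and 23.0 CPM in control, 26.0, 28.0 and 27.5 in RNA1, and 26.1 and 24.7 in RNA2. All knockdown libraries lay above the controls, at a log2 difference of 0.24 ± 0.07 in RNA1 (FDR 0.0711) and 0.14 ± 0.08 in RNA2 (FDR 0.401). Another 0 of 8 mitochondrial translation factors, 0 of 15 mitochondrial aminoacyl-tRNA synthetases and 0 of 12 genes of mitochondrial DNA maintenance, transcription and RNA handling passed in any comparison.

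Over all tested genes, 5.01% were called higher in RNA1 and 1.76% in RNA2. Among 16 genes of mitochondrial import and chaperones, 1 rose in RNA1 and 0 in RNA2. It was Tom7, a small subunit of the outer-membrane import pore, at 55.6, 55.7 and 59.5 CPM in control, 83.4, 74.2 and 66.0 in RNA1, and 68.9 and 67.8 in RNA2 (0.39 ± 0.09 in RNA1, FDR 0.0237). The call was lost without any 1 of the controls, without RNA1 replicate 2 or with the replicate block. Of 76 nuclear-encoded oxidative phosphorylation genes, 1 rose in RNA1 and 0 in RNA2, and their medians were -0.009 and -0.044. The gene was ATPsynepsilonL, which stayed at or under 1.11 CPM in every library (1.73 ± 0.36, FDR 0.0168), and its call was lost without control replicate 1 or 2 or RNA1 replicate 2. Of 9 regulators of growth and ribosome genes, 1 rose in each knockdown, and both times it was Mondo, a sugar-responsive transcription factor, at 122, 115 and 118 CPM in control, 144, 153 and 133 in RNA1, and 155 and 150 in RNA2. Both calls of Mondo were lost without any 1 of the controls, the RNA1 call also without RNA1 replicate 1 or 2, and the RNA2 call also without either RNA2 library.

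The cytosolic ribosomal proteins differed from the members in their counts. Of 84 tested, 14 rose in RNA1 and 3 in RNA2, with 0 lower in either. The shares called higher over all tested genes were 5.01% and 1.76%. Median log2 fold changes of the cytosolic ribosomal proteins were 0.17 and 0.204, where the members had 0.041 and 0.058. RpS3A, a small-subunit protein, stood at 1080, 1080 and 1210 CPM in control, 1570, 1570 and 1440 in RNA1, and 1500 and 1440 in RNA2. It rose in both knockdowns (0.44 ± 0.08, FDR 0.0104, and 0.39 ± 0.09, FDR 0.0473), as did RpS20 (0.39 ± 0.08, FDR 0.013, and 0.40 ± 0.08, FDR 0.0298). RpL10, RpL39 and RpL15 rose in RNA1 and RpL21 rose in RNA2, by log2 changes of 0.38, 0.45, 0.41 and 0.35. These counts depended on single libraries. In RNA1 the count was 0 without control replicate 1 or 2, 1 without RNA1 replicate 2, and 7 without control replicate 3 or RNA1 replicate 1. In RNA2 it was 0 without any 1 of the controls, without RNA1 replicate 2 or without RNA2 replicate 1, and the RNA2 median was 0.006 without RNA2 replicate 1 and 0.377 without RNA2 replicate 2. The difference between the lists was not tested.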

How the data were processed

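The authors deposited raw counts of reads for each gene, as whole numbers. Per the submitters' processing notes, bcl2fastq 2.17, cutadapt 1.18, FastQC 0.11.8, STAR 2.6.1, SAMtools 1.8, DESeq2 1.24.0 and build BDGP6 were used. Libraries were stranded and poly(A)-selected, per the labels' protocols. The sources used here name no counting tool, strand setting or annotation release. Of the 17676 identifiers, 17549 matched a symbol and 127 did not, and 2507 genes had no count. A further mRpL or mRpS symbol (1 of 73 in the names table) was not in the count table. Transcripts of the mitochondrial genome were not analysed, because 0 genes of the count table matched their symbol rule (mt:). No sequence was read.

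Groups follow the titles. The tests used edgeR 4.0.16 (limma 3.58.1) under R 4.3.3: filterByExpr on the 3 groups (minimum count 10, total 15), TMM scaling, and 1 robust quasi-likelihood model of the group means over all 8 libraries, without covariates. P-values are two-sided and FDR is Benjamini-Hochberg over all 11081 genes tested, with a threshold of 0.05. The biological coefficient of variation was 0.143. SE is the absolute log2 fold change over the square root of F. CPM values were derived from the deposited counts and the TMM-scaled library sizes, and per-library log2 differences use a pseudocount of 0.5 CPM. Libraries of a group differed by more than sampling noise (chi-square per degree of freedom 19.7 to 55.8), so none was treated as a duplicate deposit. This does not show that replicates are independent. Counts come from amplified reads, so the floor of 3 counts covers counting error only.

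Members and lists were chosen with earlier results of these data known, so lists have counts and medians but no test. Named genes are FBXO11, members past the threshold, the 10 members of lowest p in each comparison, the 5 highest and 5 lowest in control, untested members, the mRpS18 genes, and from other lists up to 5 called genes each. mRpL2, the partners of overlapping genes and the neighbours of members were named after their values were seen. Alternatives were another scaling, filter or test (DESeq2 1.42.0, limma-voom), a fit to the 2 groups compared, a replicate block, and leaving out each library.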

Additional observations from a re-analysis of the deposited data

How the results depend on the processing

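The count of members higher in RNA1 (1) was 3 with library totals in place of TMM, 2 with the stricter filter (at least 1 CPM in 3 libraries and a mean count of 50), and 0 to 2 when single libraries were left out (0 without control replicate 1 or 2, 2 without RNA1 replicate 1 or 3). In RNA2 it was 1 with library totals, mRpS7 (FDR 0.0461), and 0 otherwise. Library totals moved the median of all genes to 0.047 and 0.046 and that of the members to 0.08 and 0.095, and the called genes split 733 higher and 487 lower in RNA1 (555 and 582 with TMM) and 242 and 186 in RNA2 (195 and 224). Leaving out single libraries, the members' median ran from 0.017 to 0.092 in RNA1 and that between the knockdowns (0.024) from -0.086 without RNA2 replicate 1 to 0.092 without RNA2 replicate 2. In RNA1, mRpS7, mRpS11 and mRpL33 passed under 3, 1 and 1 alternatives. Reversed signs concerned differences near 0: mRpS18A in RNA2 (0.02 with library totals, 0.03 with the replicate block, -0.09 to 0.05 without single libraries), mRpS18B (-0.01 to 0.13 in RNA1, -0.15 to 0.05 in RNA2), mRpS18C in RNA1 (0.02 with library totals, -0.10 to 0.08), CRIF (-0.08 to 0.20 in RNA2, -0.13 to 0.15 between knockdowns), tko (-0.04 to 0.12) and CG6094 (-0.06 to 0.09) in RNA2. The cause was not tested.

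Deviations from the group mean correlated at -0.231 to 0.164 for same-numbered libraries and at -0.164 to 0.231 for the others. With 2 or 3 libraries a group these deviations are tied to each other, so a pairing by replicate number is not excluded. With the replicate block, 1, 0 and 0 members were called higher, and 773, 214 and 17 genes in all (1137, 419 and 31 without it). DESeq2 called 1642 genes in RNA1, 902 in RNA2 and 147 between knockdowns. The stricter filter gave 14 between knockdowns, and leaving out single libraries gave 476 to 1189, 115 to 561 and 17 to 40. With 2 or 3 libraries a group, differences smaller than the intervals given were not detectable. Among only the named genes outside the members, called genes missed the threshold in 58 combinations of gene, comparison and alternative. In 349 combinations the named gene, called or not, kept its outcome. Other called genes were not followed in this way.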

Other observations

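Of the 52 opposite-strand neighbours starting within 500 bases of a member, all tested, 2 rose in RNA1 and 0 in RNA2 by edgeR. In either comparison 0 fell. Over all tested genes, 5.01% rose and 5.25% fell in RNA1, and 1.76% and 2.02% in RNA2. The neighbours' median log2 fold changes were -0.03 in RNA1 and 0.03 in RNA2. The neighbour that starts 55 bases from mRpL28 rose by 0.80 ± 0.12 on the log2 scale in RNA1 (FDR 0.00391), where mRpL28 had 0.02 ± 0.07. CG12107, which starts 50 bases from mRpL52, rose by 0.44 ± 0.10 (FDR 0.0216), where mRpL52 had 0.15 ± 0.10. The difference within each pair was not tested.

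Besides mRpL53, 2 members share exons with a gene on their own strand. mRpL13 lies within the span of CG10602, which held 2232 to 3187 counts per library where mRpL13 held 413 to 515. mRpS14 overlaps CG32533, which held 486 to 746 counts where mRpS14 held 304 to 479. How reads on the shared bases were assigned is not given in the sources used here.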
